A study of Mus musculus with 8 samples.

Results

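N6-methyladenosine (m6A) is a methyl mark on adenosines of mRNA that is written in the nucleus by a complex holding Mettl3 and Mettl14, mostly on the central A of the sequence DRACH, where D stands for any base but C, R for a purine and H for any base but G. Vascular smooth muscle cells (VSMCs) contract through actin filaments, built from smooth muscle α-actin (Acta2) and stabilised by tropomyosins (Tpm1, Tpm2), along which the smooth muscle myosin heavy chain (Myh11) moves when its regulatory light chain (Myl9) is phosphorylated. Calponin (Cnn1), transgelin (Tagln) and smoothelin (Smtn) bind these filaments, leiomodin (Lmod1) nucleates them, and vinculin (Vcl) links them to the membrane. Cultured VSMCs are known to lower this program when they turn to a synthetic state.

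These 10 contractile genes were followed through 4 lists of m6A peaks. A gene was counted as carrying a peak where the summit (the highest point of a peak) lay in an annotated exon (GENCODE M21 on GRCm38), and 3 of the 10 genes did so in at least 1 list, with 25 of the 42744 summits of the 4 lists.

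The lists came from m6A-RIP-seq, which sequences RNA fragments of about 200 nt enriched by an antibody to m6A (IP) beside the same fragments before enrichment (input). Primary VSMCs of C57BL/6J mice (descending aorta, age 8 to 12 weeks) were transduced with a lentivirus expressing a control shRNA (shCTR), directed against a plant microRNA sequence as a nontargeting control, or an shRNA against Mettl14 (shMettl14). Cells of both groups were passaged in culture and carried a lentiviral vector. Replicates A and B of each group gave 4 IP and 4 input samples, and nothing in the labels says whether A and B were separate cultures, so the spread between them may be technical.

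Values of the lists are given in the order shCTR A, shCTR B, shMettl14 A, shMettl14 B. They held 11158, 8655, 13675 and 9256 summits, with a median of 13 to 16 IP fragments at a summit. A peak list records where IP exceeded background, not how much of a transcript there was, so neither the knockdown of Mettl14 nor the level of any contractile transcript could be checked here. A gene without a peak is therefore not shown to lack m6A. Markers of other aortic cells were present among the peaks, with an exonic summit in at least 1 list for 3 of 6 endothelial genes (Pecam1 and Cdh5 in all 4), 1 of 5 macrophage genes (Csf1r, in shMettl14 B) and 1 of 6 adventitial fibroblast genes (Pdgfra, in all 4), where 25.6% of coding genes had one. Per the methods, the adventitia was removed by enzymes and the endothelium scraped off before culture. The part of other cells in the contractile results was not tested.

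The peaks that recurred lay over the sequences shown here, each 29 nt long. They were read from a GENCODE M21 transcript of the gene, in its sense, and are given with their GRCm38 positions. The DRACH nearest to the median summit of the site is in capitals. In the 5′ part of exon 2 the summits fell at a pair of places, shCTR B and shMettl14 A at the first and shCTR A and shMettl14 B at the second, and a DRACH near each is shown. The sequences are given to show what lies under the recurring contractile peaks, and they are not mapped m6A positions, since other DRACH lie as near to some summits.
Lmod1 exon 2, 5′ part, first place, chr1:135363897-135363925 (+), coding: cagggctgcggtGGACAggaaggagtctg
Lmod1 exon 2, 5′ part, second place, chr1:135363999-135364027 (+), coding: aggtctgagcagAGACAaagacaagaaga
Lmod1 exon 2, middle, chr1:135364788-135364816 (+), coding: tctgctcagccgAAACAtggacaagcagc
Lmod1 exon 2, 3′ part, chr1:135364947-135364975 (+), coding: gcctgctccaaaGAACTcacccaagaaag
Lmod1 stop codon, chr1:135366096-135366124 (+), exon 3: gctacttcaataGGACAggcagccgggca
Lmod1 3′ UTR, chr1:135366600-135366628 (+), exon 3: agaggatactacAAACCctccacctgata
Myh11 3′ UTR just past the stop codon, chr16:14195008-14195036 (-), last exon: ccatgtcagggaAAACAgaacactaaacg
Vcl 3′ UTR, chr14:21031895-21031923 (+), last exon: gtgtctctctatAAACCctgtactttcag
None of the capitals spells GGACT, the form of DRACH most often named in m6A maps. GGACT lay within 50 nt of 1 of 6, 0 of 5, 0 of 10 and 0 of 4 contractile summits by list. Of all summits in single coding transcripts, 19.7% to 23.6% had it. The contractile counts are small, since the same sites recur across lists and most summits are in Lmod1, whose transcript held 2 GGACT. They do not show that contractile peaks lack GGACT. Any DRACH lay within 50 nt of 6 of 6, 5 of 5, 9 of 10 and 4 of 4 contractile summits by list, beside 94.9% to 96.2% of all such summits, so the presence of the motif did not set the contractile peaks apart. Both strings were searched on the strand of the transcript only, and every GGACT is also a DRACH.

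Of the 10 contractile genes, Lmod1 had exonic summits in all 4 lists, Myh11 in 3 and Vcl in 2. Acta2, Tagln, Cnn1, Smtn, Tpm1, Tpm2 and Myl9 had none in any list, and in these 7 genes no peak interval touched an exon and no summit lay anywhere in the gene body. The genes with a summit numbered 3, 2, 3 and 1 by list, where 21.7%, 19.5%, 22.2% and 19.2% of genes with a complete coding transcript, and 9.12%, 8.16%, 9.43% and 8.03% of all annotated genes, had one. Over the lists together, 25.6% of the 21515 coding genes had an exonic summit in at least 1 list and 16.1% had one in all 4 (11% and 6.65% of all 55450 annotated genes), so 3 of 10 and 1 of 10 were near the background.

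**Figure D1:**
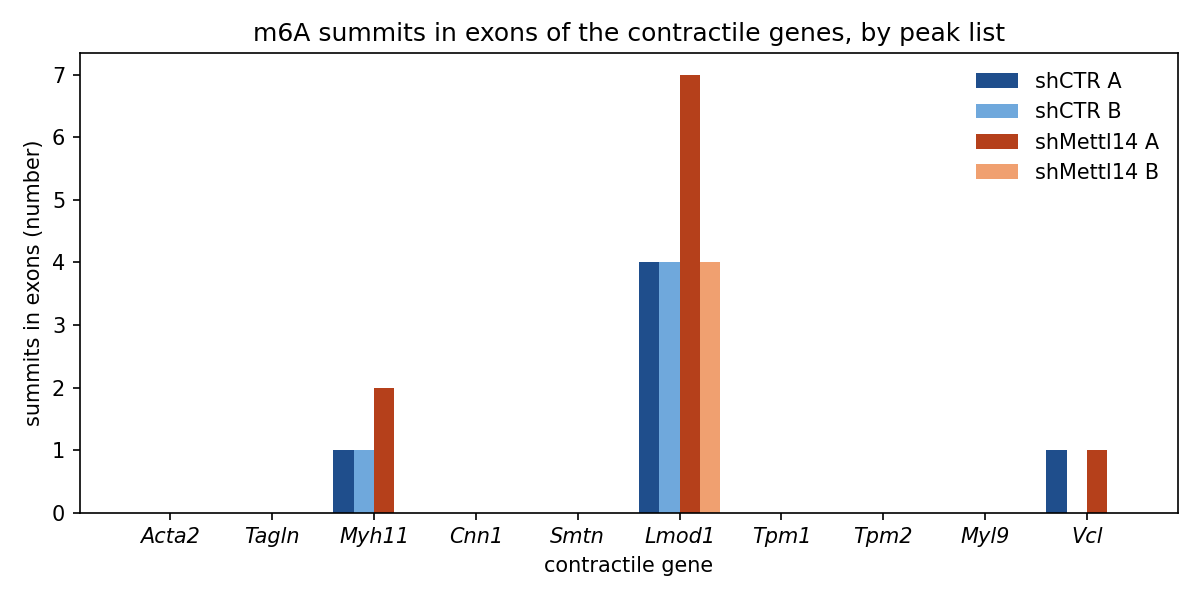
Number of m6A summits in exons (vertical axis) of each of the 10 contractile genes (horizontal axis), with 1 bar for each of the 4 peak lists. Lmod1 has 4, 4, 7 and 4 summits in the order of the legend, Myh11 and Vcl have at most 2 in any list, and the other 7 genes have none.

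Between the groups, the count of contractile genes with a summit was 2.5 ± 0.707 in shCTR and 2.0 ± 1.41 in shMettl14 (SD, n = 2 each), a difference within the spread between replicates (two-sided exact permutation p = 1, where 2 against 2 cannot go below 0.333). Exonic summits numbered 6 and 5 in the shCTR lists and 10 and 4 in the shMettl14 lists, so the shMettl14 lists lay on both sides of the controls. The means were 5.5 ± 0.707 and 7.0 ± 4.24 (SD, n = 2 each, exact permutation p = 1). Per 1000 summits of a list they were 0.558 ± 0.0283 and 0.582 ± 0.212 (SD, n = 2 each, exact permutation p = 1). No contractile gene had summits in both lists of one group and neither of the other, a pattern that 1.2% (shCTR) and 1.45% (shMettl14) of the 6075 genes with any exonic summit showed. The same held for the contractile peak regions, beside 1.71% (shCTR) and 1.79% (shMettl14) of 11361 regions. The Vcl region was in both A lists and neither B list, as were 6.79% of regions, and the Myh11 region was absent from shMettl14 B alone, as were 5.16%.

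Lmod1 (ENSMUSG00000048096.7, chr1:135324807-135368065, plus strand) held 19 of the 25 contractile summits. Its gene model is short in exons but has long ones, with 3 exons of which exon 2 (chr1:135363670-135365169) is 1500 nt of coding sequence and exon 3 (chr1:135366082-135368065) is 1984 nt and holds the stop codon and the 3′ UTR. Exon 2 carried 11 of the exonic summits and exon 3 carried 8. A gene with any exonic summit had a median of 1 or 2 of them, and 4.53% to 12.02% of such genes had as many as Lmod1 or more in the same list.

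In the 5′ part of exon 2, the summit had 84, 73, 58 and 52 IP fragments by list, the highest pileup of any contractile summit in shCTR A, shCTR B and shMettl14 B. Both shMettl14 lists were below both shCTR lists there, as they were at 39.3% of the 5547 sites found in all 4 lists (2.02% had the reverse order), and the list-wide median was also lower in shMettl14 (14 and 13 fragments) than in shCTR (16 in each). The site stood at the 97.6 to 99.02 percentile of fragments within its list in all 4. Its fold enrichment over local background was 7.18, 8.43, 6.81 and 7.81 by list, which is the 41.1 to 54.2 percentile, and the groups overlapped. By −log10 p the site stood at the 93.2, 92.0, 89.6 and 87.1 percentile, so both shMettl14 lists were below both shCTR lists, as they were at 16.3% of the sites found in all 4 lists (15.9% had the reverse order). The local background was itself at the 98.7 to 99.3 percentile of the lists.

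In the 3′ part of exon 2, the summit had 59, 46, 47 and 40 fragments by list. The fold enrichment was 21.6, 14.1, 15.5 and 22.4, between the 86.0 and 98.3 percentiles, and the highest and the lowest control value enclosed shMettl14 A while shMettl14 B was above both. The means of 17.8 ± 5.33 in shCTR and 19.0 ± 4.94 in shMettl14 (SD, n = 2 each) differed by less than either spread. Between these parts of the exon, a summit in the middle was listed only after Mettl14 shRNA, with 30 fragments in shMettl14 A and 26 in shMettl14 B, at a fold enrichment of 9.52 and 14.9. Of all 16938 sites, 3.7% were in both shMettl14 lists and neither shCTR list, and 1.91% showed the reverse. It lay in the same intervals as the 3′ summit, and in both shCTR lists an interval covered that stretch without a separate summit. A further summit of 21 fragments was listed in shMettl14 A alone.

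Exon 3 had a strong and a weak site. The strong one lay 471 to 534 nt downstream of the first base of the stop codon and had 68, 56, 62 and 38 fragments by list. Its fold enrichment of 13.7, 22.8, 17.7 and 12.7 lay between the 82.2 and 98.2 percentiles, and the group means were 18.2 ± 6.45 and 15.2 ± 3.54 (SD, n = 2 each), again closer than the spread. The weak one lay at the stop codon, 5 to 37 nt past its start, with 19, 9 and 12 fragments in the first 3 lists and no summit in shMettl14 B. The fold enrichment there was 7.64, 4.71 and 4.90. The stop codon summit was at the 58.6, 20.9 and 40.04 percentile of fragments in its lists. The A of its nearest DRACH is 4 nt past that start. A summit of 12 fragments, 171 nt past that start, was listed in shMettl14 A alone.

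**Figure D2:**
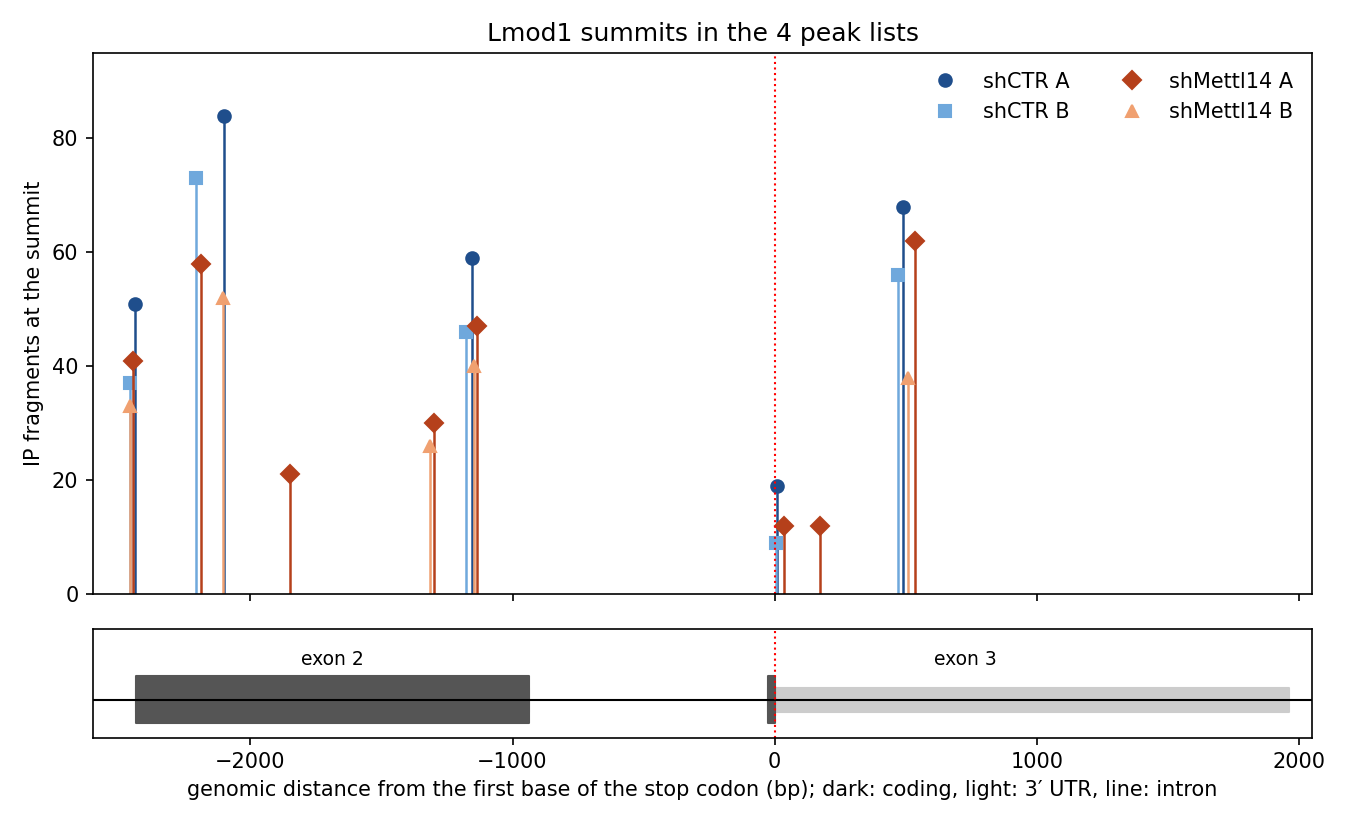
Height of each Lmod1 summit in IP fragments (vertical axis) against its genomic distance in bp from the first base of the stop codon (horizontal axis, dotted line at 0), with the exons drawn below. The summits gather at the start of exon 2, at the 3′ part of exon 2, at the stop codon and in the 3′ UTR, and the stop codon has the lowest heights among the recurring sites (9 to 19 fragments).

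Each list also had an Lmod1 summit just before exon 2, in intron 1 at 4 to 24 bp from the splice site, with 51, 37, 41 and 33 fragments by list. It lay in the same interval as the exon summit, and it was not counted as exonic. The authors' files of peaks shared by both replicates held 5 Lmod1 intervals for shCTR (of 6706 in all) and 4 for shMettl14 (of 6440), and the one missing after Mettl14 shRNA was the stop codon interval. Per the methods, shared peaks came from intersecting the replicates, and shMettl14 B is the list without that summit. The shared intervals do not, however, follow from the lists used here. For shCTR, the shared stop codon interval began at chr1:135366012, before the intervals of shCTR A (135366039) and shCTR B (135366016). Why the interval is missing for shMettl14 was not tested.

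The 3 Lmod1 regions were present in all 4 lists, as 43.4% of regions were, and were tested by limma on normal scores of the rank of their highest fold enrichment. The shift from shCTR to shMettl14, in normal scores, was 0.34 ± 0.51 (SE) for the first region of exon 2 (chr1:135363519-135364309), 0.23 ± 0.53 for the second (chr1:135364650-135365157) and -0.22 ± 0.54 for the region of the stop codon and 3′ UTR (chr1:135366016-135366724). Each had an adjusted p of 0.999 by limma with Benjamini-Hochberg adjustment over all 4929 regions, and each shift was smaller than its SE. In the first region the highest fold enrichment was that of the intron summit in shCTR A, shMettl14 A and shMettl14 B. Over all regions limma called 0% (0 of 4929) at an adjusted p under 0.05 and 4.93% (243) at an unadjusted p under 0.05, and Fisher's exact test on the pileups called 0 after adjustment and 126 before it. The signs of the 3 Lmod1 shifts depended on single lists. Without shMettl14 B all were turned, to -0.0045, -0.16 and 0.22, and without shCTR B those of the second exon 2 region and of the stop codon and 3′ UTR region were -0.26 and 0.40.

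Myh11 (ENSMUSG00000018830.10, chr16:14194535-14291372, minus strand) had its summits around the stop codon and in the 3′ UTR, in the last of 42 exons. The summit had 33, 10 and 20 fragments in the first 3 lists, and none was listed in shMettl14 B. The control replicates thus differed from each other by more than shMettl14 A differed from either. Fold enrichment was 5.81, 5.42 and 5.24, at the 14.6 to 21.8 percentile of the lists, far below the 2 strong Lmod1 sites. A second summit of 19 fragments lay in the 3′ UTR in shMettl14 A. The recurring summit ran from 5 nt before to 37 nt after the first base of the stop codon, and the summit in shCTR A is the one with GGACT within 50 nt. The shared-peak file of shCTR held 1 Myh11 interval and that of shMettl14 held none.

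Vcl (ENSMUSG00000021823.10, chr14:20929398-21033676, plus strand) had a summit in its last exon, in the 3′ UTR, with 39 fragments in shCTR A and 27 in shMettl14 A, and lay 159 and 198 nt downstream of the first base of the stop codon. Fold enrichment was 5.13 and 4.70, at the 12.6 and 10.8 percentiles, over a local background at the 97.2 and 96.6 percentiles. Neither B list had it and neither shared-peak file did. Both summits also lie in an exon of Ap3m1 on the opposite strand, and since the peaks carry no strand, reads of these genes cannot be told apart.

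**Figure D3:**
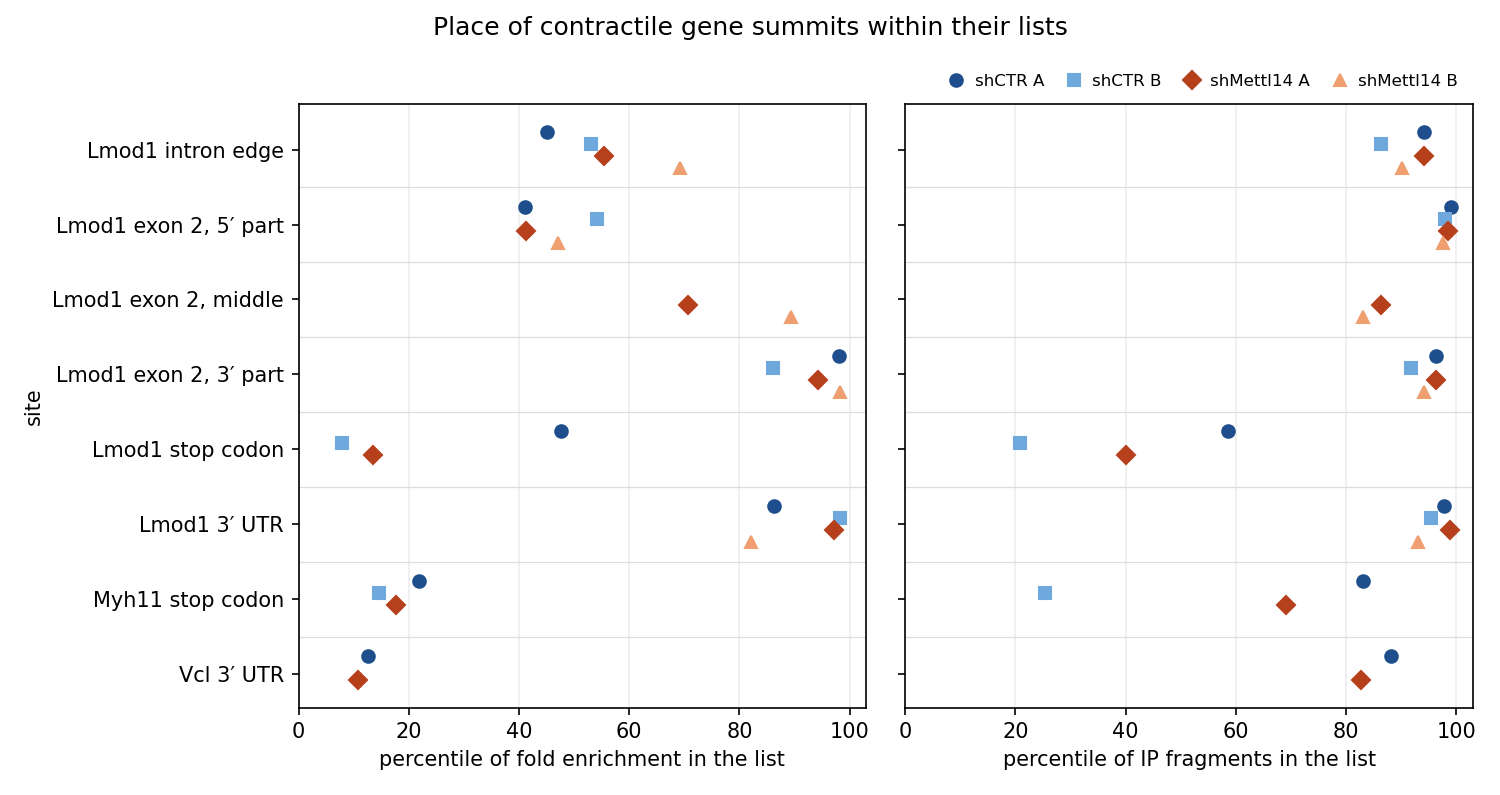
Percentile of each summit among all summits of its list, by fold enrichment (left) and by IP fragments (right), for the contractile sites found in at least 2 lists, with 1 symbol per list. The Lmod1 exon 2 3′ part and 3′ UTR sites lie between the 82.2 and 98.3 percentiles of fold enrichment, while the Myh11 and Vcl sites lie at or below the 21.8 percentile.

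By position, 3 of 6, 2 of 5, 5 of 10 and 0 of 4 contractile summits by list lay within 200 nt of the stop codon. Among all summits in single coding transcripts the share was 26.8%, 26.8%, 25.4% and 27.1%. These counts are small and come from 3 genes, and Lmod1 supplies all 4 summits of shMettl14 B, of which 3 lie in exon 2 and 1 in the 3′ UTR.

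Exon structure was not used to choose the genes. All 25 contractile summits lay in exons of 537 to 2090 nt, and 95.4% to 96.3% of all summits in single coding transcripts lay in exons of 500 nt or more. Over all coding genes, the share with a summit rose with the longest exon, from 4.53% below 500 nt to 17.3%, 26.5%, 33.6%, 38.3% and 45.1% in the bins that follow. Of the contractile genes, Lmod1 and Vcl had longest exons of 1984 and 2090 nt. The longest exons of the 7 genes without a summit were 516 nt (Smtn), 669 (Myl9), 721 (Acta2), 849 (Tpm1), 897 (Tagln), 1293 (Tpm2) and 1645 nt (Cnn1). Myh11, with 537 nt, lay within that range. Exon 2 of Lmod1 was also the only internal exon of the 10 genes over 516 nt.

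**Figure D4:**
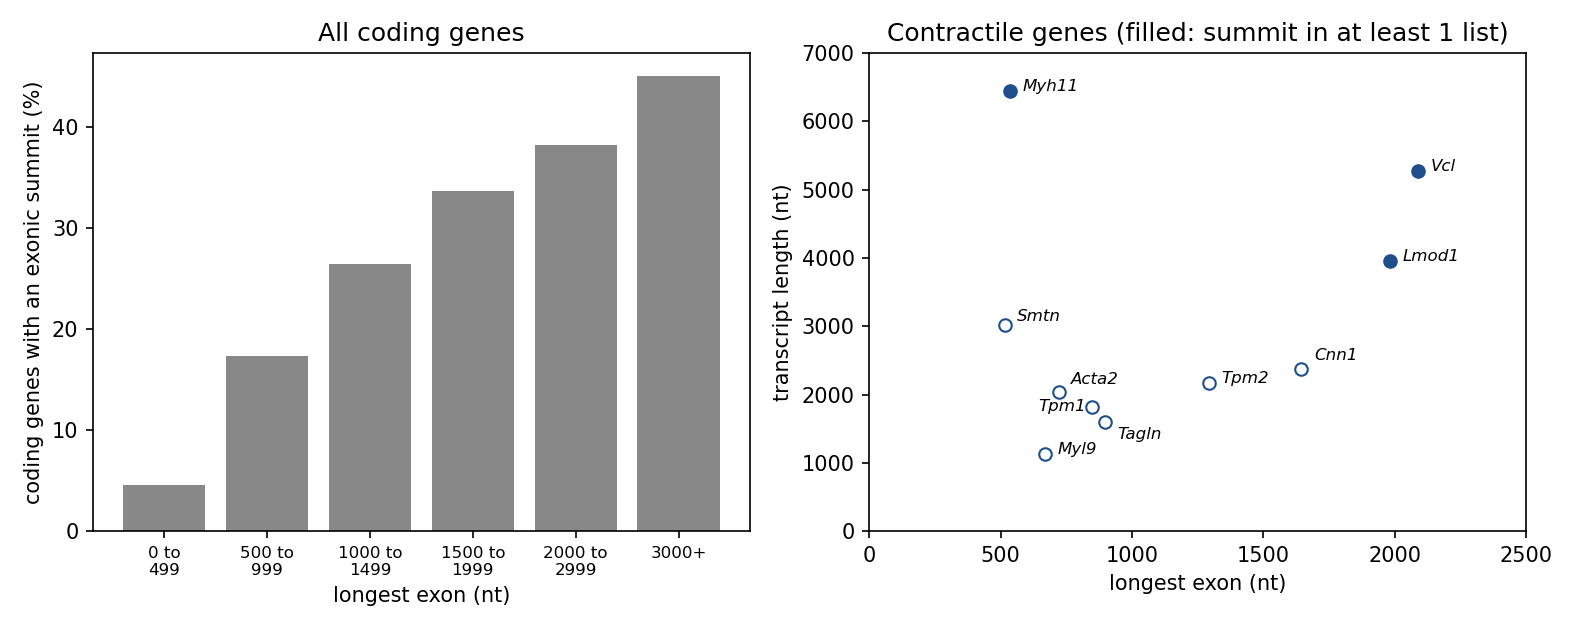
Left, share of all coding genes with an exonic summit in at least 1 list (percent) by the length of their longest exon (nt). Right, transcript length against longest exon (both nt) for the 10 contractile genes, filled where a summit was found. The share rises from 4.53% to 45.1%, and the 3 filled genes have the longest transcripts of the 10.

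The transcripts of Myh11, Vcl and Lmod1 were 6450, 5267 and 3948 nt long, against 1128 to 3020 nt for the 7 without a summit. Over all coding genes the median length was also greater with a summit (3811 nt) than without (2211 nt). The 3 transcripts held 150, 117 and 87 DRACH, against 22 to 56, where the medians over all coding genes were 76 and 44, and per 1000 nt the ranges were nearer but did not overlap, at 22.04 to 23.3 against 15.05 to 20.6. Over all coding genes the median number per 1000 nt was 20.4 with a summit and 20.3 without. The authors kept uniquely mapped reads. Of all 50-base stretches of each transcript, 0.453% to 1.26% had an exact copy elsewhere in the genome in the 7 genes without a summit, beside 0.154% in Lmod1, 1.26% in Vcl and 1.80% in Myh11. The part of read mapping in the absence of peaks was not tested. Large pileups were needed where background was high: among the 1% of summits with the highest background, the fewest fragments at a summit were 29, 26, 24 and 18 by list, against 3 over a whole list. Where Acta2, Tagln and the other genes without a summit fell on that scale was not measured.

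Beyond the 10 genes, 10 of 30 other contractile apparatus genes had an exonic summit in at least 1 list, and 8 of them in all 4. These were Cald1, Synm, Synpo2, Ppp1r12a, Ppp1r12b, Actn1, Itga8 and Rock2, while Ldb3 was in 2 lists. Caldesmon (Cald1) binds actin and tropomyosin, and it had the most summits of the list, with 4, 4, 4 and 5. Ppp1r12a and Ppp1r12b are targeting subunits of the phosphatase that removes phosphate from the myosin light chain, and Rock2 is a kinase that inhibits it. Synaptopodin 2 (Synpo2) had a best summit at the 83.0 to 99.1 percentile of fold enrichment, and integrin α8 (Itga8) at the 89.0 to 96.0 percentile. Cald1, with its many summits, had a best one at only the 10.6 to 22.3 percentile, and α-actinin 1 (Actn1) at the 0.986, 2.08, 32.8 and 30.07 percentile by list. Of the 8 genes in all 4 lists, Actn1, Synm and Ppp1r12a had higher best percentiles in both shMettl14 lists than in both shCTR lists and Itga8 had lower ones, where 17.8% and 14.4% of 3690 genes did. The 20 without a summit included the smooth muscle and cardiac actins Actg2 and Actc1, desmin (Des), filamin A (Flna) and the myosin light chain kinase gene Mylk. Of 20 relatives of the members from the same protein families or adhesions, most of them nonmuscle forms, 4 had a summit, with Myh10 and Tln2 in all 4 lists, Tpm4 in 2 and Myh9 in 1. The cytoplasmic actins Actb and Actg1, the other calponins and transgelins, and the striated muscle leiomodins Lmod2 and Lmod3 had none. Shares of 10 of 30 and 4 of 20 stand beside the 25.6% of all coding genes.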

How the data were processed

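The 8 samples, 4 IP and 4 input, were grouped by the sample titles. Per the labels and methods, the authors aligned reads with STAR to mm10, kept unique reads by SAMtools and ran MACS2 on every IP sample with the matching input as control (version and options not given in the sources used here). Replicates were not pooled. The deposited lists give, for each summit, the fold enrichment (a ratio to local background) and −log10 of the p-value and q-value. The authors also deposited 2 files of intervals shared by replicates, without values.

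Summit positions were placed in GENCODE M21 exons. IP fragments and background at each summit were recovered from the deposited fold enrichment and −log10 p, and a whole number of fragments matched 100% of summits (largest error 0.000151). Depth of sequencing was not analysed here. Summits were chained into 1 site where each lay within 100 bp of the next, so a whole site can be wider than that. Positions and motifs used 1 chosen coding transcript per gene. Regions were intervals of the 4 lists merged where they overlapped by at least 1 bp. Those in all 4 lists were compared by limma 3.58.1 on normal scores of within-list ranks, with Benjamini-Hochberg adjustment over all of them. Counts per list were compared by exact permutation tests. Python 3.11.15 and R 4.3.3 were used.

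The scripts were tested on simulated data. When changed regions were shifted by a fixed amount, limma on ranks called more unchanged regions than its nominal rate allows, and most of those lay at the extremes of a list. Further simulations, added after that was seen, kept to the nominal rate when the same values were left unranked and when changed regions exchanged places.

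The named genes were the 10 contractile genes, with and without peaks, and 2 lists of related genes, of which 1 gene is counted but not reported here by name. The genes and lists were chosen with earlier results of these data known. Alternatives were other measures to rank, a replicate block, equal list sizes, a −log10 q of at least 5, other definitions of a peak in a gene, other windows, and each list left out.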

Additional observations from a re-analysis of the deposited data

How the results depend on the processing

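The rank test called 0 of the Lmod1 regions at an adjusted p under 0.05 under all alternatives run, including the replicate block, in which the shifts were 0.34, 0.23 and -0.22 with limma adjusted p of 0.964, 0.984 and 0.987. The letters A and B are not stated to pair samples, and deviations from the group means correlated at 0.0795. Over all regions limma called 3 without shMettl14 replicate A, none of them in a contractile gene, and 0 otherwise. With 1 list left out, its group has a single list, which limma assumes to vary like the other group, so these fits say little of stability. The sign of the Lmod1 shifts, none of which passed a threshold, was not stable. For the first region of exon 2 it was -0.33 with −log10 p ranked, -0.15 with recovered pileups ranked and -0.22 (log2 ratio) with Fisher's exact test on pileups, and -0.0045 to 0.67 with 1 list left out. For the second it was -0.26 to 0.72 with 1 list left out. For the stop codon and 3′ UTR region it was 0.024 with recovered pileups ranked, and -0.85 to 0.40 with 1 list left out. The cause was not tested. The difference in contractile genes with a summit (shMettl14 minus shCTR, -0.5) was 0 at a −log10 q of at least 5 and ran from -1.5 (without shMettl14 replicate A) to 0.5 (without shMettl14 replicate B). The difference in summits (1.5) was -0.5 with equal numbers of top summits per list and -0.5 with distinct intervals, and ran from -1.5 (without shMettl14 replicate A) to 4.5 (without shMettl14 replicate B). The difference in the share within 200 nt of the stop codon (-20 percentage points) ran from -45 to 5 with 1 list left out, positive only without shMettl14 replicate B, and that in the share with DRACH (-5) was 5 with a window of 25 nt. Of the single Lmod1 sites in all 4 lists, the 5′ and 3′ parts of exon 2 each changed direction under 1 of 6 alternatives and the 3′ UTR site under 2. With 2 lists a group and pileups of 9 to 84 fragments at the recurring exonic sites, these data limit what could be detected.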
